A study of Mus musculus with 864 samples.

Results

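Ntrk2, Ntrk3 and Ngfr encode the neurotrophin receptors TrkB, TrkC and p75, and they are the 3 genes described here of 23281 in the table. They were chosen by name and not by a measured value, and each was read from its own row, with copies of a gene at several loci summed. They were followed through 694 of 799 wells that held a single cell from mouse dorsal root ganglia, the wells in which 1000 or more genes had a value above 0. Other Trk genes were not analysed here.

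Neurotrophins are secreted proteins on which sensory neurons depend during development and which keep adjusting them in the adult. TrkB is the tyrosine kinase receptor of BDNF and neurotrophin-4, TrkC is that of neurotrophin-3, and p75 is a receptor without kinase activity that binds every neurotrophin and can act together with a Trk receptor. In the dorsal root ganglion, which holds the cell bodies of somatic sensory neurons, TrkC is known from proprioceptors and other large myelinated neurons and TrkB from low-threshold touch neurons, while many nonpeptidergic nociceptors rely on Ret and receptors of the GDNF family. Transcripts were tagged at their 5′ ends, so forms of TrkB or TrkC that share a start and differ at the other end, such as receptors with and without the kinase domain, were counted as one.

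The cells came from lumbar ganglia (levels 4 to 6) of C57/Bl6 mice aged 6 to 8 weeks, and all groups were untreated and of that one strain. Session A held a preparation from males (30.8% of the cells analysed) and one from females (6.48%), session B one from males (25.4%), and session C one from males (26.5%) and one from females (10.8%). Sessions A and B were picked at room temperature and session C on a cooled stage, so that cooling and session C cannot be told apart. The labels name no animal, so the preparation, numbered 1 to 5 in the order just given, is the replicate. For contrasts between gates, p-values measure how far gate differences vary from preparation to preparation. For cooling and sex they measure the spread between preparations. Neither measures the spread between animals. Values are reads per 1000000 (RPM), a share of a cell's reads and not a count of molecules.

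Depth differed widely between preparations: the median cell held 15421, 15597, 198657, 1526080 and 2573230 reads in preparations 1 to 5. A single read was therefore worth 64.8 RPM in the median cell of preparation 1 and 0.389 RPM in that of preparation 5. Of 32 wells with medium only or nothing, Ntrk2 was above 0 in 1 (20 reads), Ngfr in 2, and Ntrk3 in 0, which allows a share of up to 9.38% (3 counts of the wells, counting error only).

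Neuron types were set by gates on genes other than the receptors. The Th gate (Th of 500 RPM or more) held 78 cells, the Mrgprd gate (100 RPM) 33, and the Tac1 gate (500 RPM) 17% of all cells analysed. With Nefh, the heavy neurofilament gene of large neurons, at 500 RPM or more, the Pvalb gate (500 RPM) held 35 cells, the Calb1 gate (100 RPM) 18, and the Htr3a gate (100 RPM) 50. A further 29% of cells passed several gates, most of them with Tac1, and 23.2% passed none. These 2 sets entered no contrast between gates. Marker genes that the gates did not use were read as a check, and they separated the gates in part. Of 8 further neurofilament markers, Nefm, Spp1, Slc17a7, Ldhb and Cntnap2 had their highest mean in the Pvalb gate. Nefl was highest in the Calb1 gate, and Necab2 and Cacna1h in the Htr3a gate. Cacna1h had 81.1 RPM in the Th gate against 1.39 in the Pvalb and 6.22 in the Calb1 gate. Necab2 had 34.3 RPM in the Th gate against 17.1 and 2.31. Spp1 had 11.7 RPM in the Th gate against 7.18 in the Htr3a gate. Of 8 further nonpeptidergic markers, P2rx3, Scn11a, Lpar3 and Plxnc1 had their highest mean in the Mrgprd gate (P2rx3 587 RPM, against 170.5 in the Tac1 gate and at most 79.6 elsewhere), while Mrgpra3, Mrgprx1, Nppb and Sst had theirs in the Tac1 gate (Sst 58.3 RPM, against 11.1 in the Mrgprd gate). Of 4 further peptidergic markers, Calca, Gal and Adcyap1 were highest in the Tac1 gate and Kit in the Htr3a gate (110.4 RPM, against 79.9 in the Tac1 gate). Calca had 3473 RPM in the Tac1 gate and 2283 RPM in the Htr3a gate. All 4 further markers of Th neurons were highest in the Th gate, among them the vesicular transporter gene Slc17a8, with 104.4 RPM there, 44.8 in the Tac1 gate and at most 1.16 in the other 4 gates. Summed over 14 satellite glia and Schwann cell markers, 500 RPM was reached in 94.9% of Th, 51.5% of Mrgprd, 61.02% of Tac1, 20% of Pvalb, 22.2% of Calb1 and 64% of Htr3a gate cells.

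Of the 3 genes, 2 had an entry in the RefSeq promoter table (build GRCm38.p6, while the deposited reads were mapped to mm9, so these positions belong to the first build only). Both sequences are shown because 5′ tagging reads the start of the transcript and because the 2 genes reached their highest levels in the same gate. Each is the stretch of that table's 300-base window (250 bases before the start, 50 after) that lies ahead of every annotated start of the gene, 5′ to 3′ on the gene's strand. Capitals mark TGTGGT, the core of the Runx site, and GGGCGG, the GC box, on either strand.
Ntrk2, chr13:58806319-58806471, plus strand: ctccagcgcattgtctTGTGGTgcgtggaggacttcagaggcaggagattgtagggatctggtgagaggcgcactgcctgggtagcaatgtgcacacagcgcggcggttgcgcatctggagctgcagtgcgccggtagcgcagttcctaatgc
Ngfr, chr11:95587736-95587948, minus strand: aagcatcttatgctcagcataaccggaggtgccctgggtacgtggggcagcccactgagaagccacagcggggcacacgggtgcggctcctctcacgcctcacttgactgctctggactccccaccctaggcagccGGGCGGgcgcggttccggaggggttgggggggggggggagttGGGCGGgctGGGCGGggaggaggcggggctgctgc

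In the whole windows, the Ntrk2 promoter held 1 TGTGGT, in the stretch shown, and 1 GGGCGG, which lies after the start. The Ngfr promoter held 4 GGGCGG matches, 3 of them in the stretch shown, and 0 of TGTGGT. The letters TATAAA, searched on both strands as well, had 0 matches in either. Over all 32851 promoters of the same length, 16.8% held TGTGGT, 35.7% GGGCGG and 13.6% TATAAA, and no matches in these 2 windows overlapped. The G and C content was 61.3% for Ntrk2 and 71.7% for Ngfr, against a median of 52.7%. A match is a string of letters and not a site.

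Ntrk2 was above 0 in 24.4% of the 694 cells, Ntrk3 in 38.04% (264 cells) and Ngfr in 59.5% (413 cells). At 100 RPM or more they were found in 8.65%, 14.6% and 36.6%. Thinning every cell to 3000 reads can only lower the first of these shares. It gave 5.56%, 8.63% and 24.7% (684 cells, leaving out 8 without recovered reads and 2 with fewer reads). At full depth the shares did not simply rise with depth. In preparations 1 and 5 the shares were 18.2% and 13.3% for Ntrk2, 29.4% and 40% for Ntrk3, and 54.2% and 50.7% for Ngfr. Preparation 3 had the highest, at 33.5%, 49.4% and 70.5%.

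Among the 6 gates, Ntrk2 was highest in neurofilament neurons of the Htr3a gate and of the Calb1 gate, and lowest in Mrgprd gate cells. Htr3a, a serotonin-gated channel gene, and Calb1, a calcium-binding protein gene, mark subsets of large neurons with little Pvalb. Mean Ntrk2 in Htr3a gate cells was 140.1, 6.10, 150.2 and 204.8 RPM in preparations 1 to 4, and in Calb1 gate cells 41.7, 115.8 and 63.1 RPM in preparations 1, 3 and 4, the preparations with 3 or more such cells. The female preparation 2 (4 cells) was the low one in the Htr3a gate. In Mrgprd gate cells the 5 preparations had 5.32, 0, 0, 0 and 14.3 RPM, and these values did not overlap with those of the Calb1 gate but did with the lowest of the Htr3a gate.

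Averaged over preparations, Ntrk2 ran from 125.3 ± 84.4 RPM (SD, n = 4) in the Htr3a gate through 73.5 ± 38.1 (n = 3) in the Calb1 gate, 52.2 ± 78.5 (n = 5) in the Th gate, 17.6 ± 14.7 (n = 4) in the Tac1 gate and 17.2 ± 15.7 (n = 5) in the Pvalb gate to 3.92 ± 6.24 (n = 5) in the Mrgprd gate. The Th value leaned on 1 cell of preparation 3 at 2232 RPM, which held 50.4% of all Ntrk2 in that gate. Only 15 of 78 Th gate cells had any Ntrk2.

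For each gate, the difference from the average of the remaining 5 was taken in a limma fit of log2(mean RPM + 5) with the preparation as a block, over 9818 genes and with Benjamini-Hochberg adjustment. On that scale, which understates the change of low genes, Ntrk2 was lower in the Mrgprd gate by -1.95 ± 0.62 (SE, limma adjusted p = 0.0252), in 4 of 5 preparations, a gate in which 14.0% of all genes tested were called. This call was lost in 10 of 20 alternative settings, among them leaving out preparation 1, 3 or 4 (adjusted p 0.100, 0.216 and 0.145). The Htr3a gate was 2.16 ± 0.68 above the others, in 4 of 4 preparations, and did not pass (limma adjusted p = 0.126), where 1.44% of genes were called. It passed in 4 of 20 alternatives, with adjusted p from 0.00162 to 0.709 over all of them. For the Calb1 gate the value was 1.26 ± 0.77 (limma adjusted p = 0.607), against 2.51% of genes called.

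Among the 15 pairs of gates, Ntrk2 differed in 1. Mrgprd gate cells were lower than Htr3a gate cells by -3.42 ± 0.83 (limma adjusted p = 0.00394, 4 of 4 preparations, 9.58% of genes called). This call was lost with cells thinned to 3000 reads (-3.83, limma adjusted p = 0.0533) and with edgeR on recovered reads (-5.99, adjusted p = 0.270). The next largest pair, Mrgprd against Calb1, had -2.67 ± 0.92 (limma adjusted p = 0.0528, 10.5% called). With the Tac1 gate at 5000 RPM that pair passed (limma adjusted p = 0.0153), as did Pvalb against Htr3a (0.0354). No neighbours in the order of levels differed beyond their spread.

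Ntrk3 was highest in neurons of the Pvalb gate, parvalbumin-containing large neurons. Mean Ntrk3 in Pvalb gate cells was 60.1, 69.1, 181.2, 171.4 and 243.9 RPM in preparations 1 to 5, and in Mrgprd gate cells 0, 14.99, 1.20, 7.94 and 45.9 RPM. Every Pvalb value was above every Mrgprd value. The value of preparation 5 in the Pvalb gate came from 1 of 3 cells, at 732 RPM, which rested on 2 reads.

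Over preparations Ntrk3 had 145.2 ± 78.7 RPM in the Pvalb gate, 62.8 ± 27.98 in the Th gate, 46.8 ± 35.3 in the Tac1 gate, 26.5 ± 14.0 in the Htr3a gate, 19.6 ± 3.68 in the Calb1 gate and 14.0 ± 18.8 in the Mrgprd gate (SD, n = 5, 5, 4, 4, 3 and 5). It was above 0 in 26 of 35 Pvalb gate cells (74.3%) and in 36 of 78 Th gate cells (46.2%). Although 12 of 18 Calb1 gate cells had some Ntrk3, none reached 100 RPM, which allows a share of up to 16.7%.

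In the fit across gates, Ntrk3 was higher in the Pvalb gate by 2.08 ± 0.48 (SE, limma adjusted p = 0.00215), in 5 of 5 preparations, where 9.26% of genes were called. It was lower in the Mrgprd gate by -1.89 ± 0.48 (limma adjusted p = 0.00401), also in 5 of 5. The Pvalb call held with each preparation left out in turn (adjusted p 0.00143 to 0.0423). It was lost with cells thinned to 3000 reads (2.74, limma adjusted p = 0.184) and without the cells of 500 RPM or more of glia markers (2.51, limma adjusted p = 0.0665). The latter setting removed 7 of 35 Pvalb gate cells and 74 of 78 Th gate cells. The Mrgprd call was lost without preparation 1 (0.0616) or 3 (0.0927), and in 4 further alternatives. The Th gate stood 0.81 ± 0.48 above the others and did not pass (limma adjusted p = 0.375, 6.07% of genes called).

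The Tac1 gate was mixed for Ntrk3. Its 54 cells with Tac1 of 5000 RPM or more averaged 2.56 RPM of Ntrk3, and its 64 cells with 500 to 5000 RPM averaged 64.4 RPM, a split made after the values were seen and not tested. With the gate raised to 5000 RPM, also chosen after seeing the data, Tac1 gate cells lay below the other gates by -2.37 (limma adjusted p = 0.00164), where the original gate gave -0.13 ± 0.53 (limma adjusted p = 0.972, 1.94% of genes called). Tac1, the substance P precursor gene, was above 0 in 578 of the 694 cells and in 13 of 32 wells without a cell.

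Among the 15 pairs, Ntrk3 differed in 2: the Mrgprd gate lay below the Pvalb gate by -3.31 ± 0.60 (limma adjusted p = 4.56e-05, 16.8% of genes called) and the Th gate above the Mrgprd gate by 2.25 ± 0.60 (limma adjusted p = 0.0127, 6.95% called). The second was lost with edgeR (3.11, adjusted p = 0.148). With the Tac1 gate at 5000 RPM, 5 further Ntrk3 pairs passed, with the Tac1 gate below the Th, Pvalb and Htr3a gates and the Pvalb gate above the Calb1 and Htr3a gates (limma adjusted p at most 0.0425). The 2 highest gates, Th and Pvalb, differed by -1.06 ± 0.60 in 5 of 5 preparations, which did not pass (limma adjusted p = 0.283, 12% of genes called).

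Ngfr was the most widely found of the 3 genes, and its pattern was set by 2 gates at opposite ends. Mean Ngfr in Htr3a gate cells was 573, 308, 250.4 and 988 RPM in preparations 1 to 4. In Mrgprd gate cells it was 0, 0, 3.65, 2.29 and 0 RPM in preparations 1 to 5. The other 4 gates lay between, from 55.8 RPM (Pvalb, preparation 4) to 327 RPM (Calb1, preparation 4), so that every Mrgprd value was below every value of every other gate, while the Htr3a values overlapped with the Calb1 and Pvalb ones.

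Averages over preparations were 530.0 ± 336 RPM (SD, n = 4) in the Htr3a gate, 214.3 ± 100.4 (n = 3) in the Calb1 gate, 136.8 ± 33.9 (n = 4) in the Tac1 gate, 131.7 ± 99.6 (n = 5) in the Pvalb gate, 126.8 ± 49.1 (n = 5) in the Th gate and 1.19 ± 1.70 (n = 5) in the Mrgprd gate. All 18 Calb1 gate cells and 48 of 50 Htr3a gate cells had a value above 0. Only 3 of 33 Mrgprd gate cells did, the highest at 20.3 RPM, although their median depth of 291317 reads exceeded the 51248.5 reads of the Htr3a gate. Thinned to 3000 reads, 35 of 50 Htr3a gate cells (70%) and 0 of 33 Mrgprd gate cells had Ngfr, and that 0 allows a share of up to 9.09%.

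**Figure D1:**
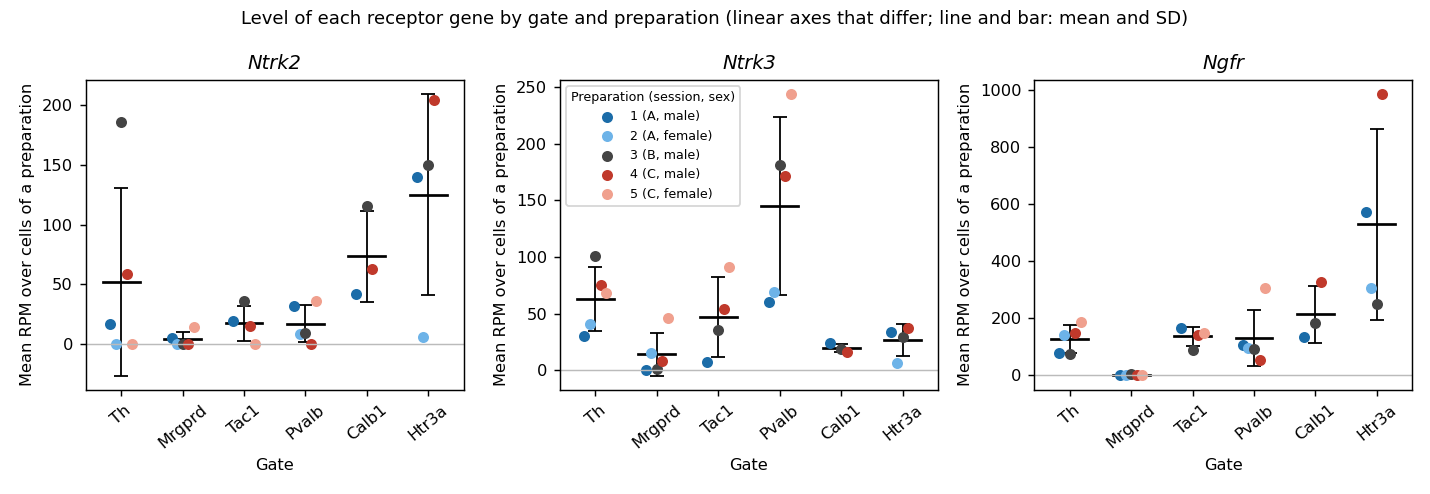
Mean RPM of Ntrk2, Ntrk3 and Ngfr (vertical axes, linear and different in each panel) by gate, with 1 point per preparation of 3 or more cells, and the mean and SD over preparations as a black line and bar. Ntrk2 and Ngfr are highest in the Htr3a gate, Ntrk3 in the Pvalb gate at 60.1 to 243.9 RPM, and the 5 Ngfr points of the Mrgprd gate lie between 0 and 3.65 RPM.

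In the fit across gates, Ngfr was lower in the Mrgprd gate by -4.93 ± 0.37 (SE, limma adjusted p = 1.29e-13), in 5 of 5 preparations, and the call held in 20 of 20 alternatives, where the difference ran from -8.34 to -3.26. It was higher in the Htr3a gate by 2.74 ± 0.41 (limma adjusted p = 3.64e-05), in 4 of 4 preparations and with each preparation left out in turn (adjusted p at most 0.0112). That second call was lost when cells were thinned to 3000 reads (3.25, limma adjusted p = 0.0784) and when cells with 500 RPM or more of glia markers were left out (2.44, limma adjusted p = 0.113). The latter setting removed 32 of 50 Htr3a gate cells and 74 of 78 Th gate cells. The Mrgprd difference without cells of 500 RPM or more of glia markers was -5.04 (limma adjusted p = 4.41e-05).

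Ngfr differed in 8 of 15 pairs of gates. The Mrgprd gate lay below all 5 others, by -4.27 (Pvalb) to -6.39 (Htr3a), each with a limma adjusted p of at most 4.29e-08, and against the Tac1 gate 2.37% of genes were called. The Htr3a gate lay above the Th gate (-2.03 ± 0.50, limma adjusted p = 0.0108, 4.05% of genes called), the Pvalb gate (-2.12 ± 0.50, 0.00864, 2.95%) and the Tac1 gate (-1.93 ± 0.54, 0.0471, 2.05%), each given as the other gate minus Htr3a. These 3 calls were lost with cells thinned to 3000 reads (limma adjusted p = 0.308, 0.444 and 0.662) and with edgeR (adjusted p = 0.0694, 0.180 and 0.0992), in the same order. The 5 pairs with the Mrgprd gate were called under both. Against the Calb1 gate, the second in order, the difference of -1.21 ± 0.58 did not pass (limma adjusted p = 0.988, 0.387% called). None of the 6 pairs among the Calb1, Tac1, Pvalb and Th gates passed (limma adjusted p of at least 0.530).

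Thinning can only lower detection, so a fall in share was fixed beforehand. The order of the gates was partly kept. Ntrk2 was above 0 in 83.3% of Calb1 gate cells at full depth and in 1 of 16 after thinning, whereas in the Htr3a gate the shares were 60% and 30%. The median Calb1 gate cell held 685784 reads. Ntrk3 in the Pvalb gate fell from 74.3% to 20.6% and in the Th gate from 46.2% to 23.1%, so the lead of the Pvalb gate over the Th gate in share of cells was not seen at equal depth. In level, the thinned Th minus Pvalb difference was 0.00 ± 1.28 (limma adjusted p = 1.00). In the Mrgprd gate thinning left 0 of 33 cells with any of the 3 genes.

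**Figure D2:**
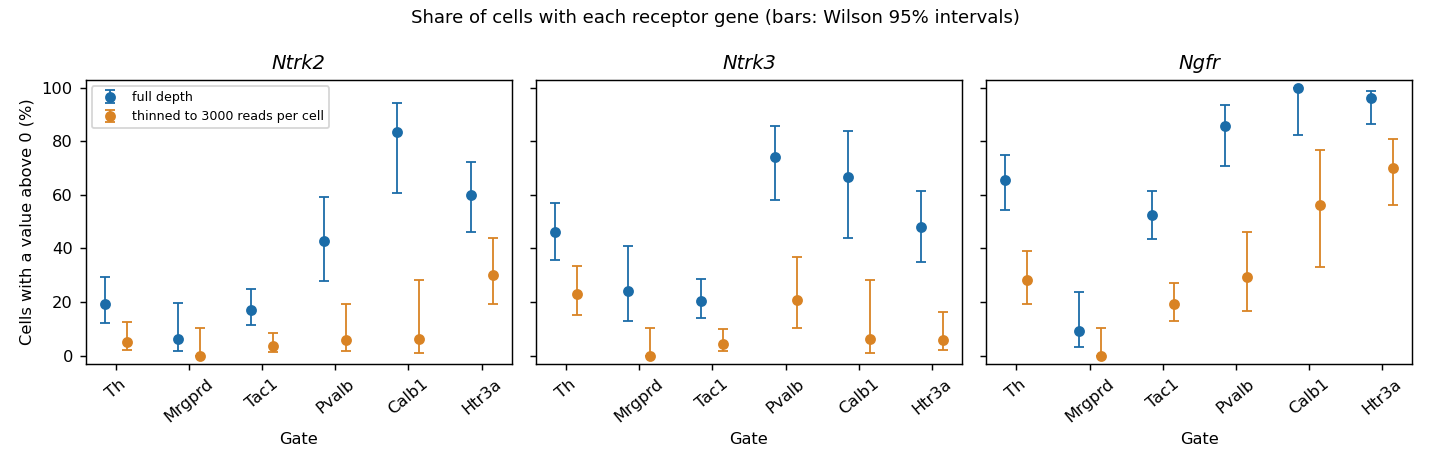
Share of cells with a value above 0 (%, vertical axis) in each gate at full depth (blue) and with each cell thinned to 3000 reads (orange), with Wilson 95% intervals that cover counting error only. Ngfr stays at 70% in the Htr3a gate after thinning, and all 3 genes are at 0 of 33 in the Mrgprd gate.

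Combinations within a cell differed between gates. At 100 RPM or more, 21 of 50 Htr3a gate cells had Ntrk2 together with Ngfr, and 22 had Ngfr alone. In the Calb1 gate 3 of 18 had Ntrk2 with Ngfr and 10 Ngfr alone. In the Pvalb gate 6 of 35 had Ntrk3 alone, 5 Ntrk3 with Ngfr, 10 Ngfr alone and 12 none. In the Mrgprd gate 32 of 33 had none of the 3. Of 78 Th gate cells 33 had none, 20 Ngfr alone, 9 Ntrk3 alone and 8 Ntrk3 with Ngfr. These are counts over cells pooled from preparations of unlike depth, and they were not tested. Preparation 1, where a read was worth 64.8 RPM in the median cell, gave 29 of the 50 Htr3a and 20 of the 78 Th gate cells.

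**Figure D3:**
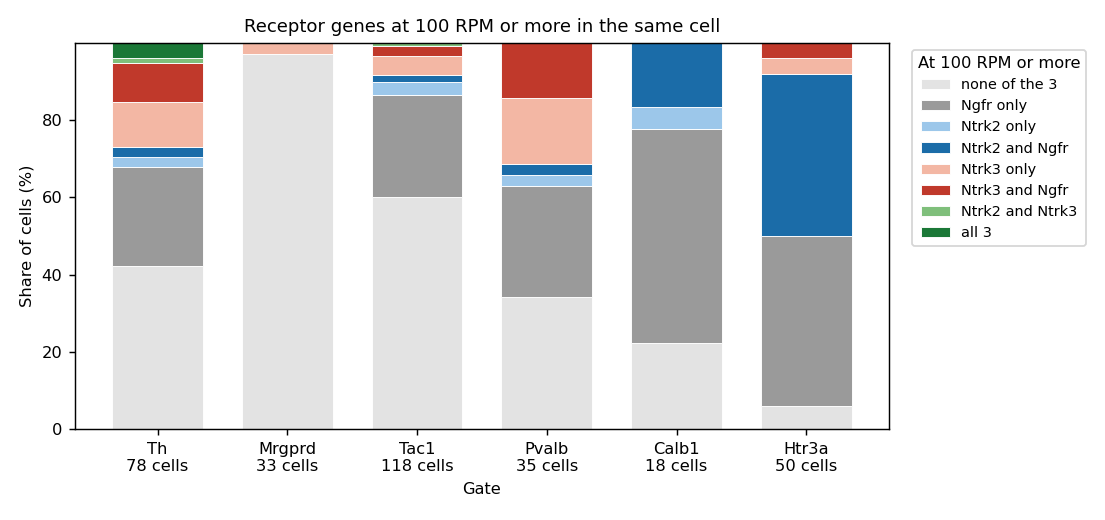
Share of cells (%, vertical axis) of each gate by which of the 3 genes were at 100 RPM or more in the same cell, with the number of cells under each bar. Ntrk2 with Ngfr makes up 42% of the Htr3a gate, and none of the 3 makes up 96.97% of the Mrgprd gate.

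High Ntrk2 and high Ntrk3 did not meet in any cell of the neurofilament gates. In the Pvalb, Calb1 and Htr3a gates together, 27 cells had Ntrk2 at 100 RPM or more and 15 had Ntrk3 at that level, and 0 had both, which allows a share of up to 2.91%. The 2 kinds of cell were mostly in different gates, 21 of the 27 in the Htr3a gate and 11 of the 15 in the Pvalb gate. Within gates, the product of the 2 shares gives 0.629 cells in the Pvalb gate, 0 in the Calb1 gate and 1.68 in the Htr3a gate, so few cells with both were due. Preparation 1, where a read was worth 64.8 RPM in the median cell, held 14 of the 21 Htr3a gate cells high in Ntrk2. Of the 27 cells high in Ntrk2, 25 were also high in Ngfr, and of the 15 high in Ntrk3, 7 were. Among all cells of a gate, Ngfr reached 100 RPM in 45 of 50 (Htr3a), 13 of 18 (Calb1) and 16 of 35 (Pvalb). Both counts thus lie near the shares of the gates that held most of these cells. Values above 0 for both Trk genes were found at full depth in 38 of these gates' cells (36.9%). By gate these were 9 cells where the product of shares gives 11.1 (Pvalb), 11 where it gives 10 (Calb1) and 18 where it gives 14.4 (Htr3a). Outside these gates high levels of both did occur in 6 cells of the 694, 4 of them in the Th gate. These are counts over cells that share a preparation, and they were not tested.

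**Figure D4:**
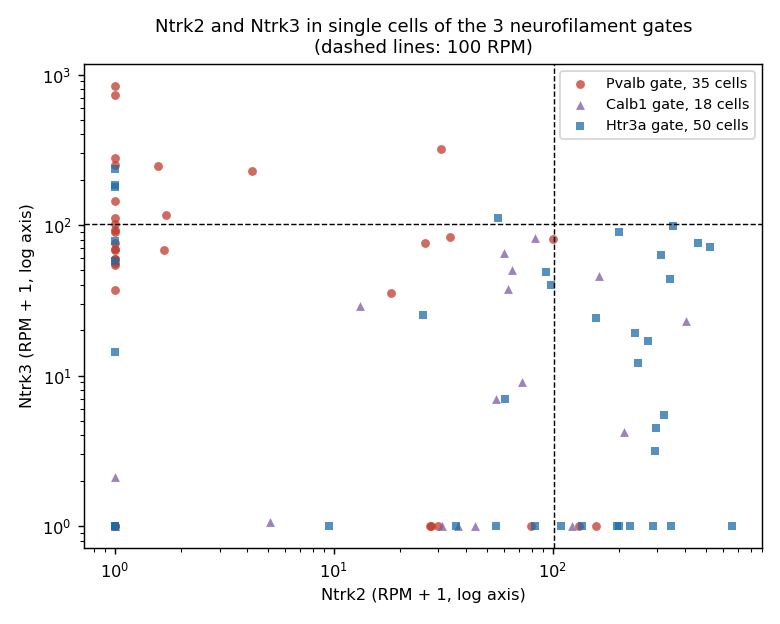
Ntrk2 against Ntrk3 in each cell of the Pvalb, Calb1 and Htr3a gates, both as RPM + 1 on log axes, with dashed lines at 100 RPM. The upper right area, where both would be at 100 RPM or more, holds 0 cells.

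The Htr3a gate held 2 kinds of cell that differed in Ntrk2. Calca, the gene of the peptide CGRP, was between 2443 and 16375 RPM in 14 of its cells and at most 237.4 RPM in the other 36, with no cell between. Ntrk2 was 0 in all 14 Calca-rich cells, which allows a share of up to 21.4%, and above 0 in 30 of the other 36 (83.3%), with a mean of 184.8 RPM. The Calca-rich cells were spread over 5 preparations (10, 1, 1, 1 and 1 cells). Their median depth was 30668 reads against 55176 in the other cells, and after thinning to 3000 reads Ntrk2 remained in 15 of 36 and 0 of 14.

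Ngfr was present on both sides of this split, in 14 of 14 Calca-rich cells (mean 824 RPM, lowest 91.6) and in 34 of 36 others (mean 358 RPM). Within preparation 1, the only one with 3 or more cells on both sides, mean Ngfr was 813 and 447 RPM, and mean Ntrk2 0 and 213.8 RPM. Ntrk3 was above 0 in 4 of 14 and 20 of 36. Calb1 was 0 in all 14 Calca-rich cells and above 0 in 15 of the other 36. The split was made after the values were seen, so it is a description without a test.

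**Figure D5:**
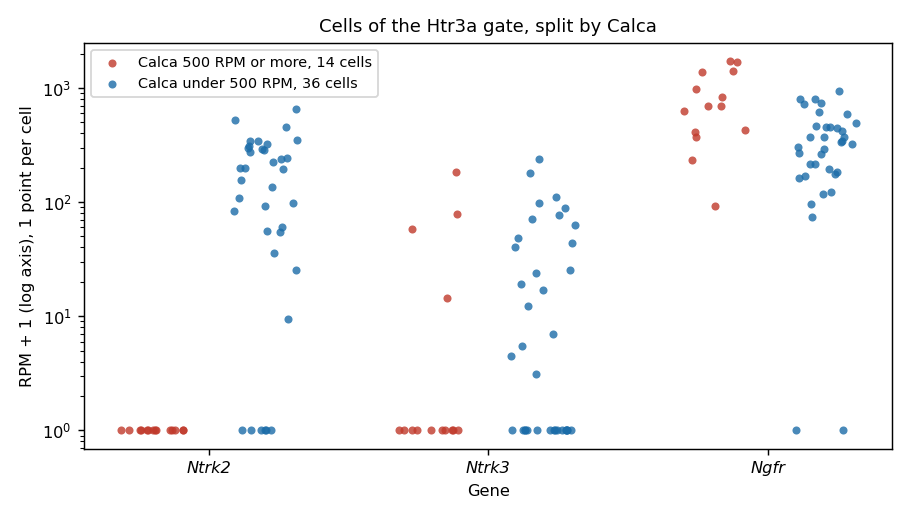
RPM + 1 (log axis) of the 3 genes in each cell of the Htr3a gate, split into 14 cells with Calca at 500 RPM or more (red) and 36 with less (blue), points spread sideways for legibility. All red points lie at 0 RPM for Ntrk2, and both colours span a high range for Ngfr.

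The receptors were also read in cells that passed no gate or several gates, in classes made after the values were seen and not tested. Among ungated cells whose neuronal marker sum was not below their non-neuronal one, 31 had Nefh of 500 RPM or more. Ntrk3 was above 0 in 25 of these (80.6%) at a mean of 133.6 RPM and Ngfr in 27 at 399 RPM, with Ntrk2 in 16 at 55.7 RPM. In the 88 such cells with less Nefh the means were 35.7 RPM for Ntrk3, 60.5 for Ngfr and 4.72 for Ntrk2. Of 94 cells with both Th and moderate Tac1 (500 to 5000 RPM), 71 had Ngfr (mean 160 RPM) and 48 had Ntrk3 (51.2 RPM). Of 53 cells with Mrgprd and moderate Tac1, 16 had Ngfr (12.8 RPM) and 13 Ntrk3 (11.2 RPM). In 42 ungated cells whose non-neuronal markers outweighed the neuronal ones, Ntrk2 was above 0 in 11 at a mean of 167.8 RPM, a mean over cells above the 133.1 RPM of the Htr3a gate, with 1 cell at 4395 RPM and a median of 0. Ngfr was above 0 in 13 of these at 40.3 RPM and Ntrk3 in 5 at 24.6 RPM.

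Across sessions the levels were compared on the mean over the Th, Mrgprd and Pvalb gates, the gates with 3 or more cells in every preparation. Back-transformed from log2(RPM + 5), Ntrk3 was 17.6, 35.6, 44.6, 51.7 and 92.4 RPM in preparations 1 to 5, with both cooled preparations above the 3 at room temperature. The last value leaned in part on the Pvalb gate, at 243.9 RPM from 1 of 3 cells, which rested on 2 reads. In the Th gate alone the values were 30.5, 40.3, 100.4, 74.8 and 68.1 RPM, highest in preparation 3 at room temperature. On the mean over the 3 gates, the log2 difference for Ntrk3 of 0.97 ± 0.59 did not pass (limma adjusted p = 0.508, with sex in the fit and 2 residual degrees of freedom). For Ngfr it was 0.34 ± 0.57 (0.839) and for Ntrk2 0.00 ± 0.62 (0.999). Over all genes 0.611% were called for cooling. Thinned to 3000 reads, which also left only the Th and Mrgprd gates, the Ntrk3 difference was -0.44.

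Female minus male, with session in the fit and 1 residual degree of freedom, gave -0.56 ± 0.72 for Ntrk2, 0.81 ± 0.65 for Ntrk3 and 0.46 ± 0.66 for Ngfr (limma adjusted p = 0.913, 0.869 and 0.925). None of the 9818 genes was called (0%), and 516 had an unadjusted limma p under 0.05. The sexes of the labels were tested within sessions A and C only, since session B had males alone.

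Other genes of neurotrophin signalling were read from a list of 63 names, of which 60 were in the table and 46 passed the filter of a mean of 5 RPM. In the Mrgprd gate 5 were higher and 5 lower, in the Pvalb gate 4 and 4, in the Th gate 2 and 3, in the Calb1 gate 1 and 1, in the Tac1 gate 1 and 0, and in the Htr3a gate 0 and 1. These counts stand beside the shares of all genes called given above and are not a test of the list.

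Of the ligands only Bdnf, the TrkB ligand gene, passed the filter. It was higher in Mrgprd gate cells (69.6 RPM against 20.4 in the others, 1.97 ± 0.51, limma adjusted p = 0.00519), the gate where both Ntrk2 and Ngfr were lowest. In Th gate cells Bdnf was lower, at 1.35 RPM (-1.99 ± 0.51, limma adjusted p = 0.0104).

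Among 11 receptor partners tested, 4 were lower and 1 higher in the Mrgprd gate. Ptprs, a receptor phosphatase that binds TrkC, was at 13.8 RPM there and 131.03 RPM elsewhere (-2.76 ± 0.43, limma adjusted p = 4.11e-06), and at 212.5 RPM in the Pvalb gate (1.72 ± 0.43, limma adjusted p = 0.00500). Maged1, whose product binds the inside of p75, was lower by -1.52 ± 0.33 in the Mrgprd gate and higher by 1.01 ± 0.33 in the Pvalb gate. Sorcs1, a sorting receptor of the sortilin family, was lower by -1.79 ± 0.60 in the first and higher by 1.99 ± 0.60 in the second. Lingo1, a partner of p75 in the Nogo receptor complex, was lower by -2.38 ± 0.46 in the Mrgprd gate, a call that was lost with the Tac1 gate at 5000 RPM (-0.56, limma adjusted p = 0.352). Ngfrap1, named for its association with p75, ran the other way, higher by 1.17 ± 0.18 in the Mrgprd gate and lower by -1.73 ± 0.22 in the Calb1 gate. Calls among partners in the Th gate (1 higher, 1 lower), the Tac1 gate (1 higher) and the Htr3a gate (1 lower) are not described gene by gene.

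Of 10 genes of proteolysis and turnover, Nedd4l, a ubiquitin ligase gene, was higher in the Mrgprd gate (2.42 ± 0.49) and the Th gate (1.96 ± 0.49) and lower in the Pvalb gate (-2.03 ± 0.49). Pcsk2, a proprotein convertase gene, was lower in the Th gate by -4.54 ± 0.39 (33.2 against 681 RPM, limma adjusted p = 5.17e-09) and higher in the Calb1 gate (2.07 ± 0.49). Among adaptors, Prex1, a Rac exchange factor gene, was higher in the Mrgprd gate (1.88 ± 0.46) and lower in the Pvalb gate (-1.40 ± 0.46).

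Receptors of the GDNF family, given side by side, differed between the gates that stood at the ends for Ngfr. Gfra2, the neurturin co-receptor gene, had 395 RPM in the Mrgprd gate (2.12 ± 0.38, limma adjusted p = 6.03e-05) and 22.9 RPM in the Htr3a gate (-2.52 ± 0.42, limma adjusted p = 0.000216). Ret, the signalling receptor, had 547 and 106.996 RPM in these 2 gates (0.93 ± 0.27 and -1.87 ± 0.30, limma adjusted p = 0.0151 and 0.000102). Gfra2 and Ret were higher in the Th gate too (2.96 ± 0.38 and 1.56 ± 0.27), where Ngfr was at 126.8 RPM and Ntrk3 at 62.8 RPM. Gfra3, the artemin co-receptor gene, was higher in the Tac1 gate (4.21 ± 0.45, limma adjusted p = 1.05e-08).

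The genes whose levels ran most like each receptor were ranked by Pearson's r over 26 pseudobulks, centred within preparation, as a description without a p. Pseudobulks of a preparation share depth and handling, and those of 1 gate are repeats of it. For Ngfr these were Fbxo2 (0.94), Tagln3 (0.93), Lgals1 (0.92), Hspb1 (0.91) and Selm (0.91). For Ntrk3 they were Fchsd1 (0.87), Shh (0.82), Atp11a (0.82), Galnt13 (0.81) and Cntfr (0.80), and for Ntrk2 Prr5 (0.80), Slc17a6 (0.79), Hbq1b (0.76), Skor2 (0.75) and Baiap2l1 (0.75). In the Ntrk2 list, Prr5 and Skor2 were low, with gate means of at most 11.7 and 13.3 RPM. Slc17a6 and Skor2 had their highest mean in the Th gate, not in the Htr3a gate. Between the members, r was 0.62 for Ntrk2 with Ngfr, 0.43 for Ntrk3 with Ngfr and 0.27 for Ntrk2 with Ntrk3.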

How the data were processed

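Per the submitters' processing notes, reads were mapped with Bowtie (version not given) to mm9, and the authors deposited RPM per gene and well with no molecular identifiers. The values of 4 deposited columns were whole numbers, read as a score with no known scale. These are 3 empty wells and 1 medium well. Whole reads were recovered for 841 of 864 columns, and 99.6% of values in cells were within 0.1 of a whole read.

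Cells of a gate and preparation (3 or more) were averaged to 26 pseudobulks. Those 9818 genes that averaged at least 5 RPM entered a fit by limma 3.58.1 (trend, robust) on log2(mean RPM + 5), two-sided, preparation as a block, 16 residual degrees of freedom. Alternatives, including edgeR 4.0.16 on recovered reads, are given in the closing section. A cell passing the Calb1 and Htr3a gates (9 cells) went to the higher gene. Doublets were handled only by leaving out wells labelled with more than 1 cell. The fit was also run on simulated pseudobulks with independent normal noise. That setting lacks the zeros of single cells, so no conclusion on these low genes is drawn from it. Shares have Wilson 95% intervals.

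Members, gates and lists were chosen with earlier results of these data known. Some of the pathway genes past the threshold, at most 8 per contrast, and the 5 genes most like each member were named. The series text speaks of 9 plates and the table has 10 plate names. Preparation is the pairing block because its gates were picked in one session from mice of one sex.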

Additional observations from a re-analysis of the deposited data

Results flagged for a closer look

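One of 15 sets of preparation means had a value far from the rest. Ngfr in the Pvalb gate was 307 RPM in preparation 5 (3 cells), while the other 4 preparations lay between 55.8 and 107.006 RPM. Chance marks about 1 set in 20 this way.

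Wells labelled with more than 1 cell, which entered no comparison, held the receptor genes more often than wells without a cell. Ntrk2 was above 0 in 54.5% of these 33 wells against 3.13% of the 32 empty and medium wells. Ntrk3 was above 0 in 24.2% against 0%, and Ngfr in 54.5% against 6.25%. The wells with more than 1 cell had a median depth of 3663090 reads, against 1619.5 in the empty and medium wells. With cells and far more reads, a higher share was fixed beforehand, so no conclusion is drawn. In the 694 single cells analysed, at a median of 139630 reads, the shares were 24.4% (Ntrk2), 38.04% (Ntrk3) and 59.5% (Ngfr).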

How the results depend on the processing

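Over 360 alternative fits of the 18 gate contrasts, 300 kept their direction and side of the threshold, 20 lost a call, 10 gained one and 30 changed sign. The cause of these changes was not tested. Only the lower Ngfr of the Mrgprd gate was called in every alternative. Values below are log2 differences.

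Pseudocount 20 gave Ntrk2 0.075 in Th and 1.53 in Htr3a (now called) and Ngfr -0.081 in Pvalb. Without the filter on low values Ntrk2 in Mrgprd was -1.95 (lost, limma adjusted p = 0.121). Averaging log values over cells gave Ntrk2 -1.20 in Tac1, 1.93 in Calb1 and 1.84 in Htr3a and Ngfr 1.59 in Calb1 (all now called), Ntrk3 -1.05 in Mrgprd (lost), and Ngfr -0.50 in Th and -1.15 in Tac1. Halved gate thresholds gave Ntrk2 -1.18 in Mrgprd (lost) and 2.50 in Htr3a (now called) and Ngfr -0.27 in Pvalb. Doubled ones gave Ntrk2 0.27 in Th and -1.28 in Mrgprd (lost) and Ngfr -0.21 in Tac1. Cells of 3000 or more reads gave Ntrk2 0.12 in Th and Ngfr -0.0905 in Pvalb. Thinning gave Ntrk2 0.71 in Th, -1.59 in Mrgprd (lost) and -0.96 in Calb1, Ntrk3 -2.68 in Mrgprd (lost), 0.29 in Tac1 and 2.74 in Pvalb (lost), and Ngfr -0.17 in Th and 3.25 in Htr3a (lost). Sessions B and C alone gave Ntrk2 0.42 in Th and -2.37 in Mrgprd (lost) and Ntrk3 0.25 in Tac1. Leaving out cells with glia markers gave Ntrk2 -1.11 in Mrgprd (lost), Ntrk3 -2.33 in Th (3 cells of 1 preparation), -0.88 in Mrgprd (lost), 2.51 in Pvalb (lost), 0.65 in Calb1 and 1.28 in Htr3a, and Ngfr -0.12 in Tac1 and 2.44 in Htr3a (lost). Leaving out cells of both the Calb1 and Htr3a gates gave Ntrk3 0.22 in Htr3a. edgeR on recovered reads gave Ntrk2 1.27 in Th and -4.00 in Mrgprd (lost), Ntrk3 -2.50 in Mrgprd (lost) and Ngfr 1.89 in Calb1 (now called). The Tac1 gate at 5000 RPM, chosen after seeing the data, gave Ntrk2 2.20 in Htr3a, Ntrk3 1.23 in Th and -2.37 in Tac1 (all now called) and 0.032 in Htr3a.

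Without the replicate block for preparation, Ntrk3 in Tac1 was 0.11 and no call changed. Leaving out each preparation gave Ntrk2 -0.60 to 0.53 in Th, -2.46 to -1.44 in Mrgprd and -1.003 to 0.12 in Pvalb, Ntrk3 -2.27 to -1.57 in Mrgprd, -0.33 to 0.29 in Tac1 and -0.63 to 0.15 in Htr3a, and Ngfr -0.0938 to 0.58 in Pvalb. For cooling, Ntrk2 was -0.12 with pseudocount 1, -0.0695 with doubled thresholds, -0.35 thinned and -0.00438 in the Th gate alone, and Ntrk3 was -0.44 thinned. For sex, Ngfr was -1.33 with doubled thresholds, -0.97 thinned and -0.20 with the Tac1 gate at 5000 RPM. Shares of cells above 0 were 5.56% (Ntrk2), 8.63% (Ntrk3) and 24.7% (Ngfr) thinned, and 8.65%, 14.6% and 36.6% at 100 RPM. Both Trk genes were found in 1% of neurofilament gate cells thinned and 0% at 100 RPM.

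Genes called numbered 190 in the Tac1 contrast, against 456 with edgeR and 688 with the gate at 5000 RPM. That gate also called 924 genes against 596 in Th, and 1.80 and 1.66 times as many as before in Calb1 and Htr3a. A single read was worth 64.8 or 64.1 RPM in the median cell of session A, which limits low levels there.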

Other observations

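The highest Ntrk2 value of any cell analysed, 4395 RPM (1644 reads), was in an ungated cell of preparation 4 with 2.67 RPM of Nefh, 0 RPM of Ngfr and 10.7 RPM summed over the glia markers. That cell belongs to the class whose non-neuronal markers, a wider list than the glia markers, outweighed the neuronal ones. It stood above the 2232 RPM of the next cell. The highest Ntrk3 value, 1736 RPM, rested on 9 reads in a cell of 5185 reads that passed several gates. The highest Ngfr value, 1715 RPM, rested on 19865 reads in a Calca-rich Htr3a gate cell. Among single-cell wells under the gene minimum, Ntrk2 was above 0 in 8.57%, Ntrk3 in 3.81% and Ngfr in 3.81%.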
